A study of Mus musculus with 5 samples.

Results

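Glutamate and GABA receptor subunit genes were examined in total RNA of parvalbumin-positive (PV) cells sorted from mouse cerebral cortex. Members were all probes whose gene symbol in the platform annotation names an AMPA (Gria), NMDA (Grin1, Grin2, Grin3), kainate (Grik) or metabotropic (Grm) glutamate receptor subunit, a GABA-A subunit of the alpha, beta, gamma or delta type, or Gabbr1 or Gabbr2. This gave 70 probes of 32 genes, out of 45281 probes and 19057 named genes on the array. Subunits of these families with no probe in that annotation are not analysed here.

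KO and WT samples were compared on single-colour Illumina bead arrays. KO samples came from PV-GFP; Clock-/- mice (replicates 1 and 3, aged 61 and 60 days) and WT samples from PV-GFP; Clock+/+ mice (replicates 1, 2 and 3, aged 61, 64 and 64 days), all of strain C57BL/6J and all carrying the fluorescent PV reporter. Every sample was taken at zeitgeber time 16 h, counted from lights-on. The labels do not say in which cells Clock was lost or whether each sample is 1 animal; the spread behind every p-value here is that between the 5 samples, which may be technical. The number of arrays, 2 against 3, limits the precision of every value below.

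Fast neurotransmission in the cortex runs through ion channels built from these subunits. Glutamate opens AMPA, NMDA and kainate receptors, which are tetramers, and GABA opens GABA-A receptors, which are pentamers of mixed subunits, while metabotropic glutamate and GABA-B receptors signal through G proteins. PV cells are fast-spiking inhibitory interneurons; they receive rapid glutamate input through AMPA receptors and inhibit one another and their targets through GABA-A receptors. Clock encodes a transcription factor of the circadian loop that binds E-box elements.

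Signals over the whole array were low. Probes counted as detected when their deposited detection p, which sets a probe against background on the same array, was under 0.05. This held for 5.98% and 4.37% of all probes on KO replicates 1 and 3, and for 8.11%, 6.06% and 5.93% on WT replicates 1, 2 and 3, where an array with no signal gives 5%. KO replicate 3 correlated with the other arrays at 0.751 to 0.827 across tested probes, and the other arrays correlated with one another at 0.86 to 0.924. None of the 3 Clock probes was detected on any array (detection p of 0.338 or more), so they do not check the genotype labels. Of 9 markers of PV and GABA neurons, 6 were detected on at least 2 arrays, Pvalb, Gad1, Gad2 and Slc32a1 among them. Of the markers of other cell types, none of 6 was detected on at least 2 arrays for excitatory neurons, microglia or endothelial and mural cells, 1 of 6 for astrocytes (Aldh1l1), 1 of 6 for the oligodendrocyte lineage (Mbp) and 1 of 7 for other interneurons (Vip). On WT replicates 1 and 3, 1 endothelial and mural marker each was detected. Over all named genes 11.8% were detected on at least 2 arrays, so such low counts of so few markers do not show that other cells were absent.

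Receptor subunit probes were detected more often on WT replicate 1 than on any other array and least often on KO replicate 3. Of the 70 probes, 7 and 4 were detected on KO replicates 1 and 3 (10.0% and 5.71%), against 15, 10 and 7 on WT replicates 1, 2 and 3 (21.4%, 14.3% and 10.0%). Each share lay above that of all probes on the same array, and with no signal 3.5 of 70 would be detected. The arrays rank in nearly the same order by members and by all probes. By all probes, however, KO replicate 1 and WT replicates 2 and 3 were nearly tied (5.98%, 6.06% and 5.93%). Whether this array-wide difference accounts for the lower KO counts was not tested.

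**Figure D1:**
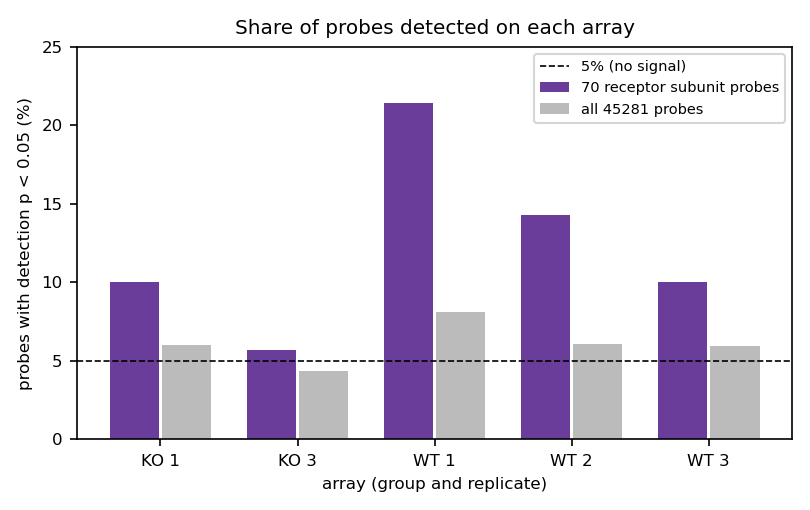
Share of probes with a detection p under 0.05 on each array (y axis, percent), for the 70 receptor subunit probes and for all 45281 probes, with KO arrays left of WT arrays. The members' share runs from 5.71% on KO replicate 3 to 21.4% on WT replicate 1, and the dashed line marks 5%, the share given by no signal.

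Over the 5 arrays, 55 member probes were detected on none, 5 on exactly 1, and 10 on at least 2, of which 4 on all 5. The 10 are 14.3% of the members, against 7.39% of all probes. By gene, 8 of 32 (25%) had a probe detected on at least 2 arrays, against 2247 of 19057 named genes (11.8%). The 8 genes were Gria1, Gria2, Gria3, Grin2c, Grm5, Gabra3, Gabrb2 and Gabrd. All 5 probes detected on a single array were detected on WT replicate 1, as were 1091 of the 1817 such probes on the whole array. The 4 probes detected on all 5 arrays were 1 each of Gria1, Gria2, Grin2c and Gabrb2, and these were also the only 4 member probes detected on KO replicate 3.

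**Figure D2:**
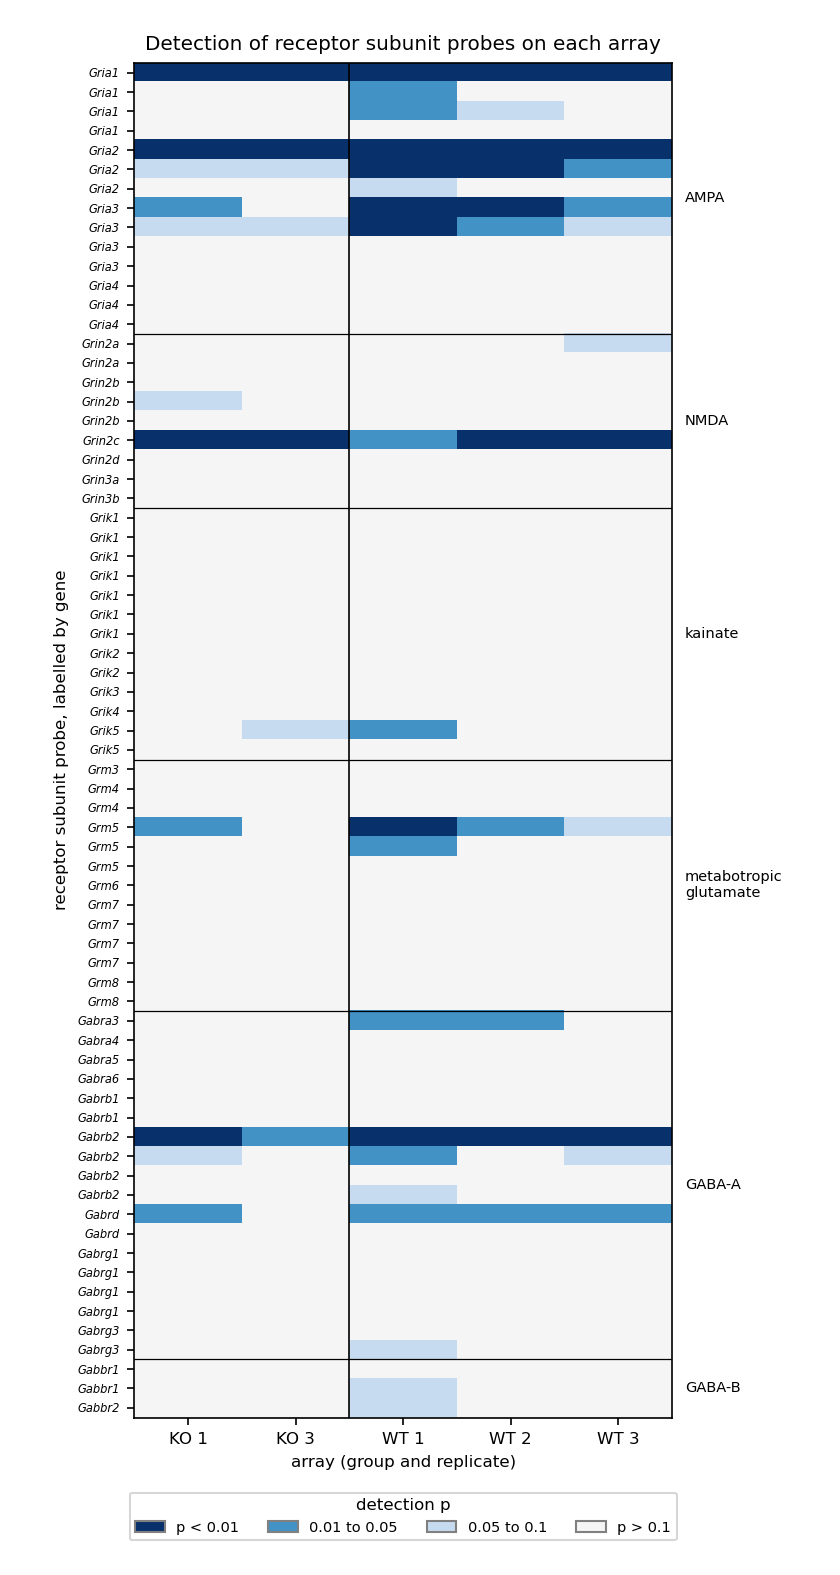
Detection p of each of the 70 receptor subunit probes (rows, labelled by gene and grouped by receptor class) on each array (columns, KO left of WT), in 4 classes of p. The darkest cells, with a detection p under 0.01, lie in AMPA rows and in single rows of Grin2c, Grm5 and Gabrb2. Most rows have no detected cell, with 55 of 70 probes detected on no array.

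Different probes of 1 gene often disagreed. Of the 4 Gria1 probes, 1 was detected on all 5 arrays, 2 on WT replicate 1 alone and 1 on none, and Gabrb2 had 1 of 4 on all 5 arrays, 1 on WT replicate 1 alone and 2 on none. All 15 probes detected on any array were among the 56 member probes annotated to a RefSeq NM transcript, and 10 of these were detected on at least 2 arrays. None of the 12 member probes annotated to an AK cDNA clone was detected on any array. Over all named probes, 8.72% of AK probes and 6.99% of NM probes were detected on at least 2 arrays. With shares this low, 12 probes are too few to show that AK probes of members were detected less often than other AK probes. Since probes of 1 gene often disagreed, a gene listed here as not detected is one whose probes gave no signal above background. That does not show that its transcript was absent.

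AMPA receptors, the main carriers of fast glutamate input, had the largest share of detected genes among the 6 classes: 3 of 4 genes and 5 of 14 probes were detected on at least 2 arrays. Gria1 encodes the GluA1 subunit. Its brightest probe, ILMN_1221295, gave raw signals of 4803 and 3553 on KO replicates 1 and 3, against 3490, 4485 and 4815 on WT replicates 1, 2 and 3. WT replicate 1 had the lowest raw median of all probes (1121, against 1687 to 1991 on the other arrays). Raw signals here and below are therefore not comparable between arrays before normalization. After normalization it read 9.47 and 8.78 on the log2 scale in KO and 8.98, 9.24 and 9.36 in WT. The highest and the lowest values were thus both KO arrays, and the groups overlapped. The difference was -0.07 ± 0.24 (SE; 95% interval -0.63 to 0.50; limma adjusted p 0.969), and 0.28 with KO replicate 3 left out.

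Gria2 encodes GluA2, the subunit that, after RNA editing, makes AMPA receptors impermeable to calcium. Probe ILMN_2680737 read 8.74 and 9.01 (log2) on KO replicates 1 and 3, against 8.68, 8.81 and 8.77 in WT, from raw signals of 4050 and 3747 in KO and 3164, 3978 and 4196 in WT. KO replicate 1 lay inside the WT range and KO replicate 3 above it (difference 0.12 ± 0.16, SE; 95% interval -0.26 to 0.51; limma adjusted p 0.872). A second probe, ILMN_1222167, annotated to another Gria2 transcript (NM_001039195, against NM_013540 for the first), read 7.11 and 7.16 in KO, against 7.53, 7.81 and 7.47 in WT. Both KO values lay below all 3 WT values. This probe was detected on all 3 WT arrays (detection p 0.00107 to 0.0192) and on neither KO array (0.0598 and 0.062), so the KO value is a bound. Against the lowest signal among detected probes of each KO array, its KO mean was at least 1.31-fold below its WT mean, a bound that leaves out sampling error. The fitted difference of -0.47 ± 0.17 (SE; 95% interval -0.87 to -0.06) had an unadjusted limma p of 0.029 and a limma adjusted p of 0.801. Without WT replicate 1 the bound was 1.12-fold and the fitted difference -0.21. The other Gria2 probe, ILMN_3122922, was detected on no array.

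Gria3 encodes GluA3. Probe ILMN_1251634 read 7.35 and 6.86 (log2) on KO replicates 1 and 3, against 8.19, 7.80 and 7.35 on WT replicates 1, 2 and 3. It was detected on KO replicate 1 and on all 3 WT arrays. KO replicate 1 equalled WT replicate 3, the lowest WT array, to 2 decimals, and the WT arrays themselves spread over more than the difference between group means. That difference was -0.67 ± 0.28 (SE; 95% interval -1.32 to -0.02), with an unadjusted p of 0.045 and a limma adjusted p of 0.801; leaving out WT replicate 1 gave -0.22, and leaving out KO replicate 1 gave -1.01. Probe ILMN_1238789 read 7.02 and 7.09 in KO, against 7.42, 7.32 and 7.15 in WT, with no overlap. It was not above background on either KO array or on WT replicate 3. Its fitted difference was -0.24 ± 0.16 (SE; 95% interval -0.62 to 0.14; limma adjusted p 0.801), so the interval included 0. By the bound, which leaves out sampling error, the KO mean was at least 1.06-fold below the WT mean. Leaving out WT replicate 1 brought this bound to 1.0-fold. The other Gria3 probes and all 3 probes of Gria4, whose product GluA4 is known as a subunit of fast-spiking interneurons, were detected on no array. The lowest detection p of any Gria4 probe was 0.139.

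NMDA receptor subunits form channels that need both glutamate and a co-agonist and pass calcium. Of 6 genes only Grin2c, which encodes GluN2C, was detected, through its single probe and on all 5 arrays. Its raw signals were 3351 and 3190 on KO replicates 1 and 3, against 1825, 3245 and 3883 on WT replicates 1, 2 and 3. The normalised values were 7.62 and 8.12 in KO and 7.20, 7.88 and 8.34 in WT. Both KO values fell within the WT range, which was the widest among the 10 tested member probes (WT SD 0.58), and the difference was 0.06 ± 0.34 (SE; 95% interval -0.73 to 0.85; limma adjusted p 0.978). WT replicate 1, the array with the most detected member probes, gave the lowest Grin2c value. The probes of Grin2a, Grin2b, Grin2d, Grin3a and Grin3b were detected on no array, with Grin2a coming nearest (detection p 0.0801 on WT replicate 3).

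Kainate receptor subunits were at background. Of 5 genes and 13 probes, only 1 probe of Grik5, which encodes the GluK5 subunit, was detected, on WT replicate 1 alone (detection p 0.0289; 0.104 and 0.0791 on KO replicates 1 and 3). None of the 7 Grik1 probes nor the probes of Grik2, Grik3 and Grik4 was detected on any array.

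Among metabotropic glutamate receptors, 1 of 6 genes was detected on at least 2 arrays. Grm5, which encodes the Gq-coupled receptor mGluR5, read 7.26 and 7.04 (log2, probe ILMN_1242601) on KO replicates 1 and 3, against 7.58, 7.35 and 7.16 in WT. KO replicate 1 lay inside the WT range and KO replicate 3 below it, and the probe was detected on KO replicate 1 and on WT replicates 1 and 2. The difference was -0.21 ± 0.19 (SE; 95% interval -0.65 to 0.23; limma adjusted p 0.805), and it was -0.06 with WT replicate 1 left out, -0.11 with KO replicate 3 left out and -0.36 with KO replicate 1 left out. A second Grm5 probe was detected on WT replicate 1 only. No probe of Grm3, Grm4, Grm6, Grm7 or Grm8 was detected on any array.

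GABA-A receptors contributed 3 detected genes of 9. Gabrb2 encodes the beta2 subunit, part of the common synaptic receptor of the cortex. Its probe ILMN_2696413 gave raw signals of 3622 and 3078 on KO replicates 1 and 3, against 2610, 3665 and 3817 on WT replicates 1, 2 and 3, and normalised values of 8.14 and 7.77 in KO and 8.09, 8.51 and 8.24 in WT. KO replicate 1 lay inside the WT range and KO replicate 3 below it. The difference was -0.32 ± 0.20 (SE; 95% interval -0.80 to 0.15; limma adjusted p 0.801). It was -0.14 when KO replicate 3 was left out, -0.16 when WT replicate 1 was, -0.56 when KO replicate 1 was, and -0.03 with age as a covariate. Only WT replicate 1 matched a KO sample in age, so the age fit cannot cleanly separate age from genotype.

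Gabrd encodes the delta subunit of extrasynaptic GABA-A receptors, which carry tonic inhibition. Probe ILMN_2865082 read 7.24 and 7.0 (log2) in KO, against 7.31, 7.21 and 7.21 in WT, and was detected on every array but KO replicate 3. Its difference of -0.12 ± 0.16 (SE; 95% interval -0.50 to 0.25; limma adjusted p 0.868) came with KO replicate 1 inside the WT range. It was -0.01 when KO replicate 3 was left out, -0.06 when WT replicate 1 was and -0.26 when KO replicate 1 was. Gabra3, which encodes the alpha3 subunit, read 6.96 and 6.90 in KO, against 7.24, 7.21 and 6.94 in WT. It was detected on WT replicates 1 and 2 and on neither KO array. The lowest detected signals of the KO arrays lay above the WT mean, so no fold is given; the fitted difference was -0.20 (limma adjusted p 0.805).

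No probe of Gabra4, Gabra5, Gabra6, Gabrb1, Gabrg1 or Gabrg3 was detected on any array. Many GABA-A genes lie side by side in the genome. By the order of protein-coding genes in the RefSeq table, Gabra6 neighbours Gabrb2 on chromosome 11, Gabrg3 neighbours Gabra5 on chromosome 7, and Gabra4 neighbours Gabrb1 on chromosome 5. Of these 3 pairs, the only detected gene was Gabrb2. Both subunits of the GABA-B receptor, which acts through potassium and calcium channels, were at background. The lowest detection p of the 2 Gabbr1 probes was 0.078 and that of the Gabbr2 probe 0.062, both on WT replicate 1.

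**Figure D3:**
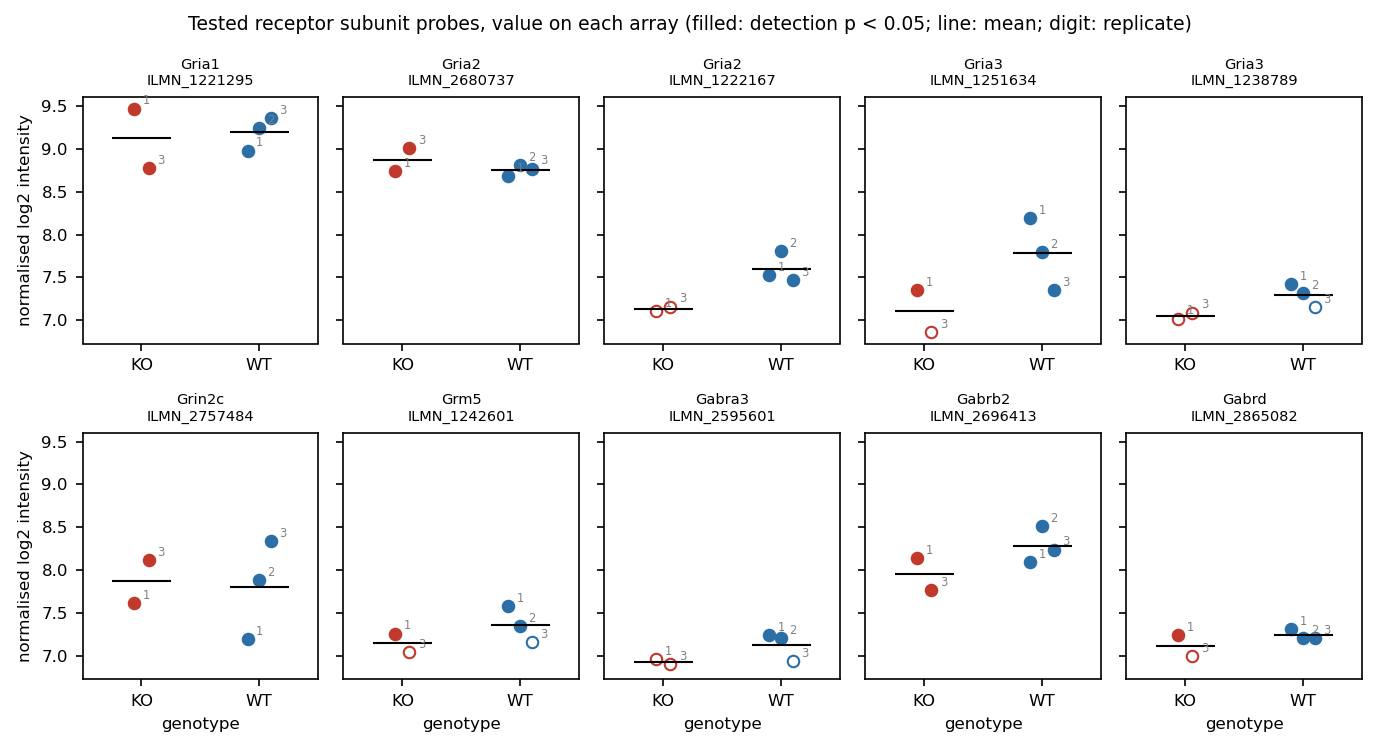
Normalised log2 intensity (y axis) of the 10 tested receptor subunit probes on each array, KO left of WT, with 1 panel for each probe, filled points where the detection p was under 0.05 and a line at the group mean. The KO points of Gria2 ILMN_1222167 and Gria3 ILMN_1238789 are open and lie below all WT points, and in the other 8 panels the groups overlap or touch.

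The comparison of KO with WT asks whether the loss of Clock changes these receptors in PV cells. No member passed: 0 of the 10 tested probes had a limma adjusted p under 0.05, as did 0 of all 3347 tested probes (0%). At an unadjusted p under 0.05 there were 2 members, both with lower values in KO, against 97 of all tested probes (2.90%) in that direction and 3.02% in the other. Both KO arrays lay below all 3 WT arrays for 2 of the 10, against 10.6% of all tested probes, and above them for 0, against 11.2%. The 2 were Gria2 ILMN_1222167 and Gria3 ILMN_1238789, neither detected on a KO array, and no member probe with a detected KO array separated the groups. The differences were negative for 8 of the 10 probes, with a median of -0.21, where 49.4% of all tested probes were negative and their median was 0.0048. Under median scaling all 10 were negative, with a median of -0.69 beside -0.39 for all tested probes. Left-out arrays moved the members' median to -0.12 without WT replicate 1 and to -0.34 without WT replicate 3. Probes passed the detection filter on any 2 arrays, and 3 of the 10 did so without a detected KO array (14.4% of all tested probes); a probe that entered through WT arrays alone had to read higher there. Over all 70 member probes, with no filter, the median difference was -0.03. Of these, 60 were untested probes at or near background (6.29 to 7.18 on the log2 scale), so that median says little of receptor expression.

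The members' median lay below the WT mean on both KO arrays, and further below it on KO replicate 3, the array with fewest detected probes. Relative to the WT mean, the median of the 10 probes was -0.15 on KO replicate 1 and -0.28 on KO replicate 3, against 0.00, 0.05 and -0.08 on WT replicates 1, 2 and 3. For all tested probes it was 0.0069 and -0.026 on the KO arrays. The 10 include the 3 probes that entered through WT arrays alone. Group means of PV and GABA neuron markers differed in the same direction. All 9 tested probes, of 6 genes, had a lower KO mean (from -1.24 for Pvalb to -0.13, median -0.37). None passed (limma adjusted p 0.801 or more). On KO replicate 3 every one lay below all WT arrays. On KO replicate 1 only Pvalb, Gad2, Cox6a2 and Kcnc2 ILMN_1234447 did. There Gad1 ILMN_2621743 (10.09) and Kcnc2 ILMN_1221793 (9.01) lay above all WT arrays. Gad1 ILMN_1234988, Slc32a1 and Kcnc2 ILMN_2691337 lay inside the WT range. Taking the brightest probe of each of the 9 listed marker genes, the median log2 level was 8.22 and 7.19 on KO replicates 1 and 3. It was 8.76, 8.93 and 8.79 on WT replicates 1, 2 and 3. On both KO arrays this median was the Pvalb value itself. Gad2 read 8.96 and 8.98 on KO replicates 1 and 3, against 9.15, 9.28 and 9.03 on WT replicates 1, 2 and 3. Of the 9 listed genes, 6 and 4 were detected in KO, against 7, 6 and 6 in WT. The part of these markers in the receptor values was not tested. Fewer PV cells in a sample, less RNA per cell and lower expression of these marker genes in KO cells cannot be told apart here. Defining markers of excitatory neurons such as Slc17a7 and Camk2a were not detected on any array.

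**Figure D4:**
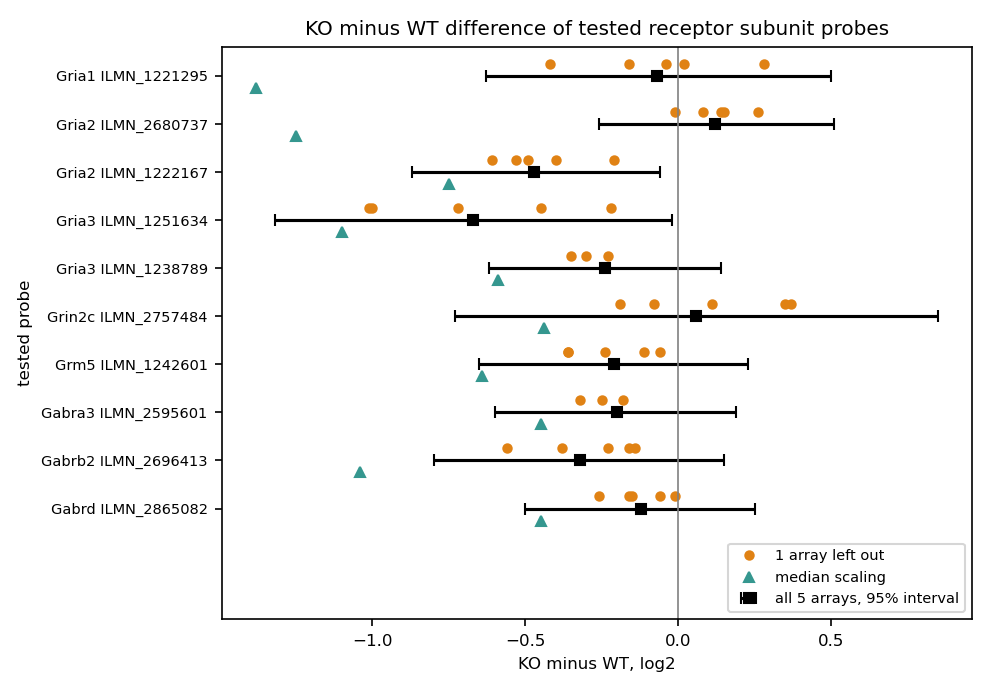
KO minus WT difference (x axis, log2) of the 10 tested probes: squares with 95% intervals for all 5 arrays, circles for each fit with 1 array left out, and triangles for median scaling. The intervals of Gria2 ILMN_1222167 and Gria3 ILMN_1251634 end just below 0 before adjustment, the other 8 span 0, and all 10 triangles lie below 0.

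Genes that traffic, anchor or assist these receptors were read from the same fit. Of 50 listed genes 41 were on the array and 7 were detected on at least 2 arrays, with 12 tested probes, none of which passed (smallest limma adjusted p 0.801). Their differences were negative for 9 and positive for 3, with a median of -0.27. Dlgap1, a scaffold protein of excitatory synapses, read 7.53 ± 0.50 (SD, n = 2) in KO and 8.11 ± 0.11 (SD, n = 3) in WT on probe ILMN_1216649, with KO replicate 1 at 7.88 and KO replicate 3 at 7.18, and differed by -0.32 on its second probe. Nrxn3, a presynaptic adhesion molecule, differed by -0.50 and 0.15 on its 2 probes detected in KO. Its 2 probes not above background on either KO array count among the 9. By the bound, which leaves out sampling error, the KO mean of ILMN_2640908 was at least 1.39-fold below its WT mean. Its fitted difference had an unadjusted limma p of 0.061. The bound of ILMN_2640909 was 1.0-fold. Nsf, the ATPase that also binds AMPA receptors, differed by -0.24, Zdhhc3, a palmitoyltransferase of GABA-A gamma2 subunits, by 0.12, and Shank1, a postsynaptic scaffold, by 0.05. Neto2, a kainate receptor auxiliary subunit, was detected on 4 arrays by 1 probe and 3 by another, while the kainate subunits were at background. Of 10 other ligand-gated subunits on the array, such as Glrb and Gabrr1, none was detected on any array.

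Since Clock acts through E-boxes, the RefSeq promoter windows of the members (250 bases before to 50 after each annotated start, GRCm38.p6) were searched on both strands for the E-box CACGTG, for AGGTCA, the half-site bound by REV-ERB and ROR receptors, and for the D-box TTATGTAA. Windows were given for 23 of the 32 genes (30 windows), and for 4 of the 8 detected genes, Gabra3, Gabrb2, Gria2 and Grin2c. None of the 30 held CACGTG, against 7.15% of all 32851 windows, none held TTATGTAA, against 0.938%, and 2 held AGGTCA, those of Grin2c and Grm8, against 16.3%. These counts describe letters in a short window and say nothing of binding. The stretches below lie upstream of the whole annotated gene for 2 detected members, Grin2c, the NMDA subunit detected on all 5 arrays and the 1 detected gene with a match (in capitals, starting at base 3), and Gabra3, not above background in KO and without a match.
Grin2c chr11:115267298-115267493 (minus strand, GRCm38.p6): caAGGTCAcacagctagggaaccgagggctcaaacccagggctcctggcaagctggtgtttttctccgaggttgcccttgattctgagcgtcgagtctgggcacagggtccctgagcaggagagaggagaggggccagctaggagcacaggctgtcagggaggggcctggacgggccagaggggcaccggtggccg
Gabra3 chrX:72656920-72657169 (minus strand, GRCm38.p6): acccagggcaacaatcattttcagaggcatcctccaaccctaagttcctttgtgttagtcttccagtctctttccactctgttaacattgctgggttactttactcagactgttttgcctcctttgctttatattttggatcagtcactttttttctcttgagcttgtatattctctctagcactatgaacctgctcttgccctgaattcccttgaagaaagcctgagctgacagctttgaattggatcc
The Grin2c stretch holds 196 bases at 64.8% G and C, and the Gabra3 stretch 250 bases at 42.4%.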

How the data were processed

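The labels' protocols state Trizol extraction, RNeasy clean-up, DNase I treatment, amplification (NuGEN Ovation PicoSL WTA V2) and biotin labelling, and the submitters' processing notes name GenomeStudio. Per the file headers, the deposited raw table holds a linear intensity and a detection p-value for each probe and array, not normalised (array medians 1121 to 1991). The authors' processed table holds linear intensity values with medians from -2.00 to -0.10, and how it was made is not stated.

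Raw intensities were background corrected by normexp, with the background taken from the detection p-values, then quantile normalised and put on the log2 scale with an offset of 16 (neqc in limma 3.58.1, R 4.3.3). The filter kept the 3347 probes that had a detection p below 0.05 on 2 or more of the 5 arrays. limma's moderated test (lmFit, eBayes) was two-sided, with p-values adjusted by Benjamini and Hochberg's method over all 3347 probes and a threshold of 0.05. Where no array of a group detected a probe, a bound is given instead of a level, set by the lowest signal among detected probes of each array or by the probe's own value if higher. This bound compares group means and leaves out sampling error, so it does not limit the true difference. The fit was tested on simulated data. The simulated shifts were larger than any member difference of the main fit, and no whole-array differences were simulated. That test therefore does not show how often shifts of the size seen here would be found. Groups came from the sample titles. Symbols came from the platform annotation (34885 probes with 1 gene, 18 with several, left unnamed, and 10378 with none), updated through RefSeq for the other lists. Members, lists and tests were chosen with earlier results of these data known. Every member with a tested probe is described with its values, and the others by name; of the receptor-associated genes, up to 3 of smallest p in each direction are given, with Neto2 added after its values were seen. The settings varied were background correction, scaling, offset, use of the processed table (values raised to at least 1), detection filters, the variance model, the replicate number as a block, age, and the samples, each left out in turn with the rest normalised anew.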

Additional observations from a re-analysis of the deposited data

How the results depend on the processing

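None of the 10 tested receptor subunit probes passed under any alternative run; over all tested probes 27 passed without KO replicate 1, a fit that sets KO replicate 3 alone, assumed to vary like the WT arrays, against WT, and 0 passed under every other alternative. The members' median difference of -0.21 was -0.10 without background correction, -0.31 on the authors' processed values, -0.03 with no filter, 0.00 with detection on all 5 arrays (4 probes), and -0.69 under median scaling, where all tested probes had a median of -0.39; it ranged from -0.34 to -0.12 with 1 array left out. Of 136 values of single probes under alternatives, 8 changed sign and the other 128 kept it. Part of the 128 could not change. Runs that altered only the detection filter or the variance model used the same normalised values and design as the main fit. Among the rest some moved much, such as Grin2c at 0.67 and Gabrb2 at -0.03 with age as a covariate. Only WT replicate 1 matched a KO sample in age, so the age fit cannot cleanly separate age from genotype. The Gria1 difference was 0.31 with age as a covariate, 0.28 without KO replicate 3 and 0.02 without WT replicate 3 (from -0.42 to 0.28 over the samples left out). That of Gria2 ILMN_2680737 was -1.25 under median scaling and -0.01 without KO replicate 3 (-0.01 to 0.26 over the samples left out). That of Grin2c was -0.44 under median scaling, -0.19 without KO replicate 3 and -0.08 without WT replicate 1 (-0.19 to 0.37 over the samples left out). The cause was not tested.

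Detection on at least 2 arrays held for 6 member probes at a detection p under 0.01 and for 8 to 10 with 1 array left out. At a detection p under 0.01 the counts were 4 and 3 on KO replicates 1 and 3, against 7, 6 and 4 on WT replicates 1, 2 and 3, and at a detection p under 0.1 they were 11 and 7 in KO, against 20, 11 and 11 in WT. With the replicate number as a block (replicate block) the members' median was -0.19 and no call changed. Deviations from the group mean correlated at 0.20 between KO and WT replicate 1 and at 0.13 between KO and WT replicate 3. For unlike numbers they were -0.13 (KO replicate 1 with WT replicate 3) and -0.20 (KO replicate 3 with WT replicate 1). With 2 KO arrays each deviation mirrors the other, so these values are forced in sign and do not settle a pairing. The files name no slide, so no slide block was run. Gria3 ILMN_1238789 and Gabra3 no longer passed the filter without WT replicate 1 or 2, so they have no fitted value there; the Gria3 bound was 1.05-fold without WT replicate 2, and 1.0-fold without WT replicate 1. Low signal limits these values: 55 of 70 member probes were never above background.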
